A study of Mus musculus with 5 samples.

Results

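The interleukin and tumor necrosis factor (TNF) superfamily genes of the mouse kidney were examined in RNA-seq data of injured kidneys with and without tubular Prdm16. Members were chosen by symbol: interleukins and their receptors (Il followed by a number), Tnf, the Tnfsf ligands, the Tnfrsf receptors, and the IL-6 family genes Lif, Lifr, Osm and Osmr. The rule found 120 of the 35478 genes listed, 88 of them with an interleukin or IL-6 family symbol and 32 with a TNF superfamily symbol. The kidneys came from 2 Prdm16fl/fl mice (mice 1 and 3) and 3 Ksp-Cre/Prdm16fl/fl mice (mice 1, 2 and 3), with 1 library per mouse. All were male and 7 to 8 weeks old. The strain is labelled C57BL/6J;129, while the sample titles name C57BL/6J only. All mice carried floxed alleles of Prdm16, a gene for a zinc finger transcriptional regulator. In the Ksp-Cre/Prdm16fl/fl mice, Cre recombinase was driven by the kidney-specific cadherin promoter, which is active in tubular epithelium, so other cells of the kidney kept the gene. Unilateral ischemia-reperfusion injury (UIRI) was made in every mouse by clamping the left renal pedicle for 35 minutes at 38.5°C. The right kidney was removed on day 10 and the injured kidney was taken on day 11. The files used here hold no uninjured kidney and no mouse with Cre alone, so effects of Cre itself and of the loss of Prdm16 cannot be told apart.

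Interleukins and TNF superfamily ligands are signals through which epithelial, stromal and immune cells steer inflammation, repair and cell death. IL-1 family cytokines act through receptors that recruit MyD88 and activate NF-kB, whereas the IL-6 family acts through the shared receptor gp130 (Il6st) and STAT3. TNF receptors activate NF-kB through TRAF proteins, and those with a death domain can also start cell death. Decoy receptors and soluble antagonists, such as the IL-1 receptor antagonist and IL-18 binding protein, hold these signals back. In the injured kidney, damaged tubules and recruited leukocytes are known sources of such cytokines.

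Counted reads numbered 15215871 and 14939040 in the Prdm16fl/fl libraries (mice 1 and 3). The Ksp-Cre libraries held 16425161, 16111708 and 15470435 counted reads (mice 1, 2 and 3). Levels are given as CPM, the count per 1000000 TMM-scaled counts, for comparisons between mice, and as TPM, which also divides by gene length, for comparisons between genes. Prdm16 had 25.3 and 20.02 CPM in the Prdm16fl/fl mice and 17.1, 17.0 and 17.99 CPM in the Ksp-Cre/Prdm16fl/fl mice, a log2 fold change of -0.38 ± 0.15 (SE, n = 2 and 3 mice, adjusted p = 0.259 in edgeR's quasi-likelihood test). The CPM values did not overlap between the groups, but the TPM values did (5.86 and 4.21 against 4.64, 4.59 and 4.34 TPM). The gene's total also includes cells without Cre and exons outside the deleted one, so it is a weak check of the labels. Umod, the uromodulin gene of the thick ascending limb, reached 1785 and 2188 TPM in the Prdm16fl/fl mice and 2027, 1805 and 725 TPM in Ksp-Cre mice 1, 2 and 3, so the tissue held renal tubules.

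Ksp-Cre mouse 3 stood apart from the other libraries. On the first principal component, which took 56.4% of the variance, it lay at 72.2, while the other 4 libraries lay between -36.3 and -1.92. Its correlation with Ksp-Cre mice 1 and 2 was 0.957 and 0.960, while mice 1 and 2 correlated at 0.991 with each other and the Prdm16fl/fl mice at 0.989 (log2 CPM over genes, which are not independent replicates). Many of the results below are given with and without this mouse. Nothing in the labels sets it apart from the other Ksp-Cre mice.

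Of the 120 members, 82 reached 10 counts in at least 1 library and were taken as measured, 38 did not, and 8 of these had no read in any library. The filter on low counts left 80 members for testing among 16394 genes. None of the 80 was called (log2 fold change of 1 or more either way, at an adjusted p under 0.05), and none had an adjusted p under 0.05 at any fold change, whereas 0.0793% of all tested genes were called higher, 0.628% were called lower and 0.976% had an adjusted p under 0.05 (edgeR). The smallest adjusted p values were 0.0726 for Il11ra1 and 0.0931 for Il15, both lower in Ksp-Cre/Prdm16fl/fl kidneys. At an unadjusted p under 0.05, 19 members (23.8%) were higher and 3 (3.75%) lower, compared with 7.64% and 11.2% of all tested genes. These shares of all tested genes also stand beside the counts by role and by list given below at this threshold. The log2 fold change was above 0 for 58 of the 80 tested members (72.5%, against 54% of all genes), with a median of 0.19 against 0.038 over all genes.

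All 3 Ksp-Cre/Prdm16fl/fl libraries lay above both Prdm16fl/fl libraries for 25 tested members (31.2%) and below both for 8 (10%), compared with 20.3% and 21.3% of all tested genes. These counts depended on single mice. Without Ksp-Cre mouse 3, 32 members were higher and 6 lower at an unadjusted p under 0.05 (16.5% and 17.7% of all genes), and 44 lay above both Prdm16fl/fl libraries (32.6% of all genes). Without Prdm16fl/fl mouse 1, Prdm16fl/fl mouse 3 or Ksp-Cre mouse 2, the higher members at an unadjusted p under 0.05 numbered 2, 7 and 11 (3.09%, 2.62% and 5.32% of all genes). The count of members below the Prdm16fl/fl range was 15 without Prdm16fl/fl mouse 1 (29.6% of all genes) and 15 without Ksp-Cre mouse 2 (25.1%). Where a single Prdm16fl/fl mouse remained, the test assumes that it varies like the other group.

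Without Ksp-Cre mouse 3, 7 members passed the call, all higher: Tnfsf8, Lif, Il6, Il1f6, Il1r2, Il1rn and Il33. Of all tested genes, 1.43% were then called higher and 3.1% lower. DESeq2 on all 5 mice called Il1r2, Il1f6 and Tnfsf8, all higher, while it called 0.702% of all genes higher and 2.32% lower. With limma on log2(FPKM + 1) and on log2(FPKM + 0.1), 0 of the 59 members tested there were called, against 0.412% and 0.322% of the 13345 genes tested. At an unadjusted p under 0.05, 17 and 18 of these members were higher (14.2% and 14.4% of all genes).

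**Figure D1:**
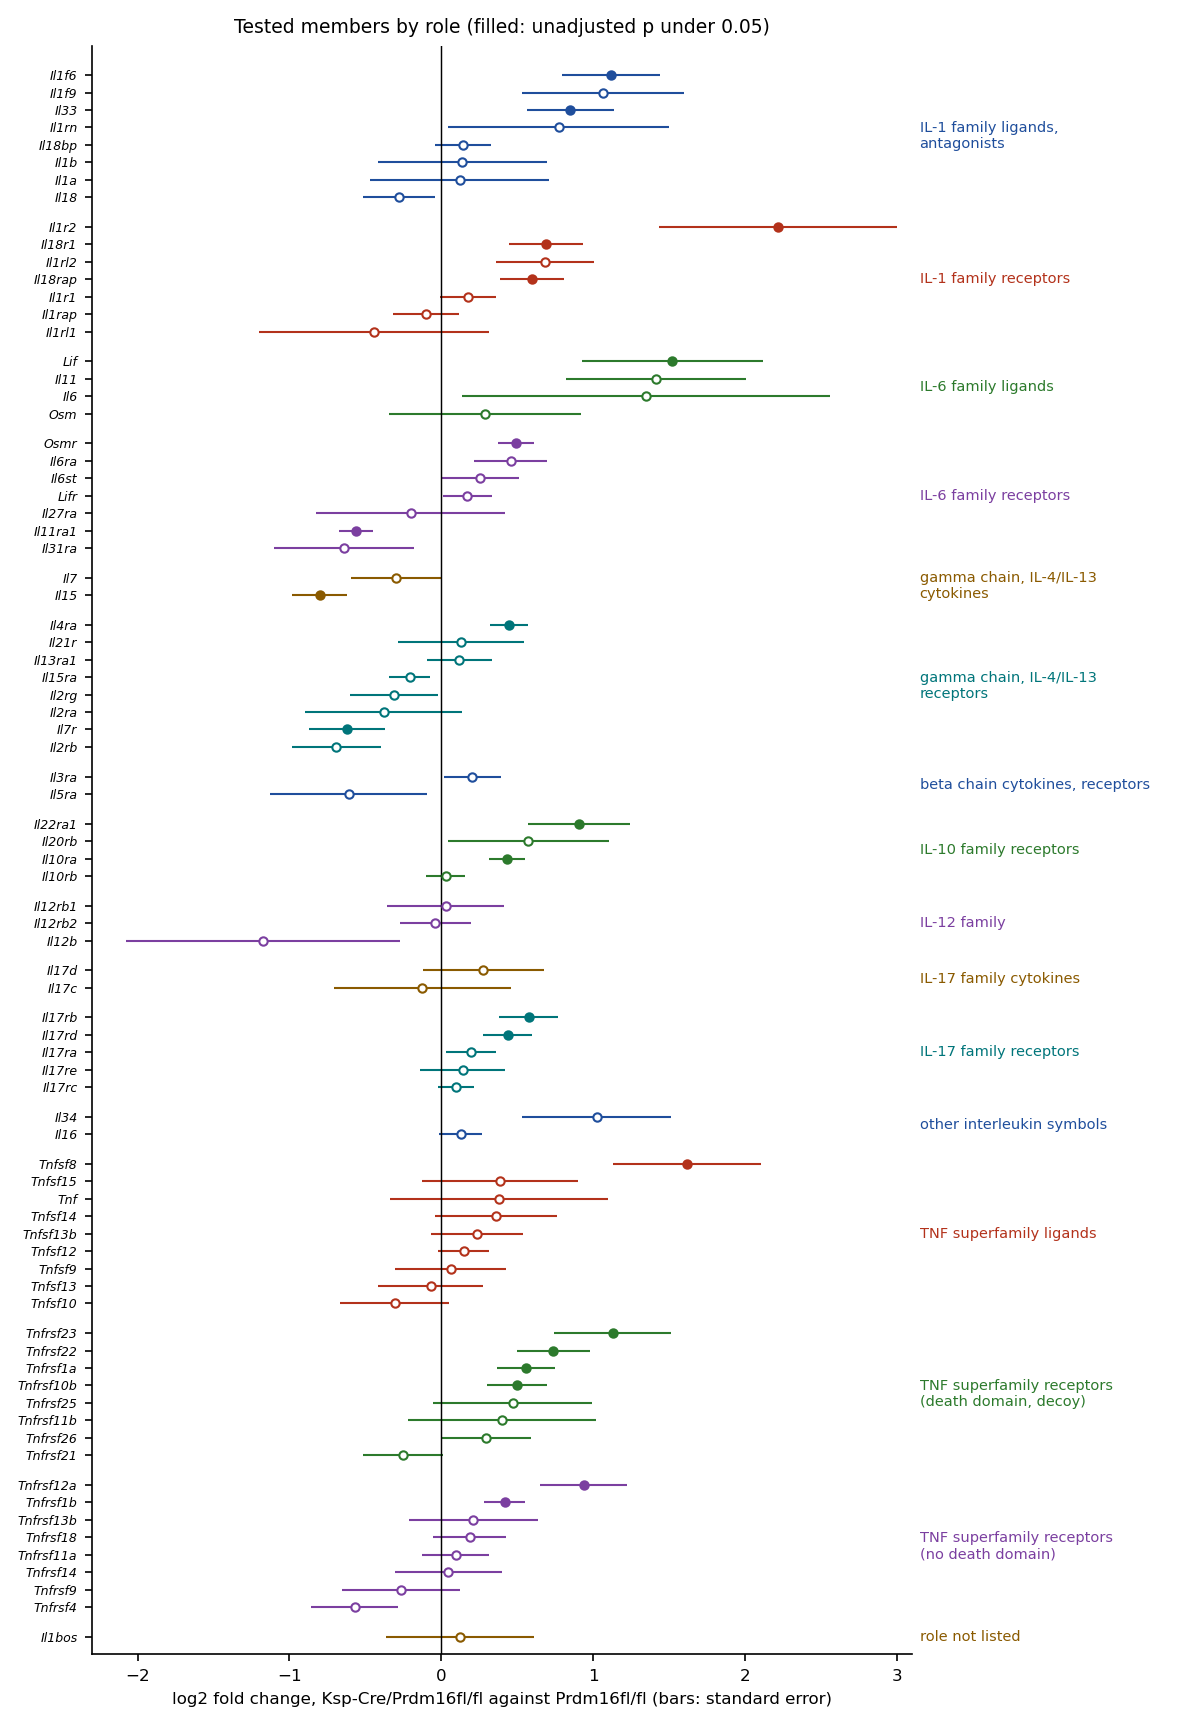
Log2 fold change (x axis) of the 80 tested members in 3 Ksp-Cre/Prdm16fl/fl against 2 Prdm16fl/fl kidneys, grouped by role, with bars of 1 standard error and filled points for an unadjusted p under 0.05. Values run from -1.17 for Il12b to 2.22 for Il1r2, and 58 of 80 points lie right of 0.

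Among IL-1 family ligands and antagonists, 8 of 11 were measured and tested, 2 were higher at an unadjusted p under 0.05 and none was lower. Il1f6, which encodes the epithelial cytokine IL-36α and had the highest mean TPM of the group (23.6), counted 4.99 and 4.74 CPM in the Prdm16fl/fl mice and 12.3, 12.6 and 6.80 CPM in Ksp-Cre mice 1, 2 and 3. All Ksp-Cre mice were above both Prdm16fl/fl mice, with mice 1 and 2 close together and mouse 3 nearer to the Prdm16fl/fl level. Its log2 fold change was 1.12 ± 0.32 (SE, adjusted p = 0.151) and 1.35 without Ksp-Cre mouse 3. Il33, an alarmin held in the nucleus and released on cell damage, had 14.8 and 19.6 CPM in the Prdm16fl/fl mice and 39.0, 32.5 and 21.3 CPM in the Ksp-Cre mice. The groups did not overlap, and the log2 fold change was 0.85 ± 0.28 (SE, adjusted p = 0.193). Exons of Il33 overlap those of Gm41832 on the opposite strand, and whether counting used the strand is not given in the sources used here.

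The inflammatory cytokine Il1b had 10.6 and 14.9 CPM in the Prdm16fl/fl mice and 18.7, 18.4 and 4.86 CPM in Ksp-Cre mice 1, 2 and 3. Mice 1 and 2 were thus the highest of the 5 and mouse 3 the lowest, and the log2 fold change of 0.14 ± 0.56 (SE, adjusted p = 0.915) was 0.55 without mouse 3. The antisense transcript Il1bos, whose exons overlap those of Il1b, stayed between 0.359 and 0.742 CPM in all mice. Il1rn, the receptor antagonist that blocks IL-1, had 9.64 and 8.32 CPM in the Prdm16fl/fl mice and 21.7, 21.0 and 3.27 CPM in the Ksp-Cre mice, again with mice 1 and 2 the highest and mouse 3 the lowest (it is named here after its values were seen). Its log2 fold change was 0.77 and 1.25 without mouse 3. Il18, a cytokine activated by inflammasomes, had 6.14 and 7.61 CPM against 4.71, 6.14 and 6.13 CPM. Its groups overlapped, with a log2 fold change of -0.28 ± 0.24 (SE, adjusted p = 0.566) that ran from -0.429 to -0.118 with 1 mouse left out.

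IL-1 family receptors were tested for 7 of 9 genes, of which 3 were higher at an unadjusted p under 0.05 (Il1r2, Il18r1 and Il18rap) and none lower. Il1r2, a decoy receptor that binds IL-1 without signalling, had the largest log2 fold change of all tested members. It counted 0.876 and 1.51 CPM in the Prdm16fl/fl mice (13 and 21 reads) and 2.61, 3.07 and 11.1 CPM in Ksp-Cre mice 1, 2 and 3 (46, 52 and 166 reads). Every Ksp-Cre mouse was above both Prdm16fl/fl mice, and mouse 3 was far above the rest. The log2 fold change was 2.22 ± 0.78 (SE, adjusted p = 0.211) and 1.26 without mouse 3. It was then no longer the largest, with Il6 (1.90), Lif (1.89) and Tnfsf8 (1.88) among the members above it.

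Il18rap, the accessory chain of the IL-18 receptor, had 5.93 and 6.67 CPM in the Prdm16fl/fl mice and 8.17, 10.2 and 10.3 CPM in the Ksp-Cre mice. These groups were separate, with a log2 fold change of 0.60 ± 0.21 (SE, adjusted p = 0.209). The other chain, Il18r1, had a log2 fold change of 0.69 ± 0.24 (SE, adjusted p = 0.213). Il1r1, the signalling IL-1 receptor and by mean TPM (9.54) the most abundant of the group, had 23.2 and 21.2 CPM against 29.0, 25.8 and 20.3 CPM. Ksp-Cre mouse 3 lay below both Prdm16fl/fl mice for Il1r1, and the groups overlapped (log2 fold change 0.17 ± 0.18, SE, adjusted p = 0.647, and 0.31 without mouse 3). The genes of 6 of these receptors lie side by side on chromosome 1 at 40123872 to 40590867 (positions as the files give them, with the mouse build not given in the sources used here). In this stretch, Il1r2, Il1rl2, Il18r1 and Il18rap were above both Prdm16fl/fl libraries in all 3 Ksp-Cre mice, and Il1r1 and Il1rl1 were not. Of all tested genes, 20.3% were above in this way. Other groups of neighbouring members were not compared with this stretch.

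The IL-6 family ligands were tested for 4 of 6 genes, and the log2 fold change of all 4 was above 0, with 1 of them past an unadjusted p of 0.05. Lif, the leukemia inhibitory factor that signals through Lifr and gp130, had 10.0 and 4.88 CPM in the Prdm16fl/fl mice and 33.3, 22.0 and 8.995 CPM in Ksp-Cre mice 1, 2 and 3. Ksp-Cre mice 1 and 2 were far above the Prdm16fl/fl mice, while mouse 3 lay between them. The log2 fold change was 1.52 ± 0.59 (SE, adjusted p = 0.247) and 1.89 without mouse 3.

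Il6, the cytokine that drives the acute phase response, was sparse, with 5 and 2 reads in the Prdm16fl/fl mice and 16, 16 and 0 reads in Ksp-Cre mice 1, 2 and 3. The absence of reads in mouse 3 allows up to 3 reads in that library by counting error alone. Its log2 fold change was 1.35 ± 1.21 (SE, adjusted p = 0.587), compared with 1.90 without mouse 3. Il11, a cytokine tied to fibrosis, was in the same range with 12 and 8 reads against 55, 22 and 17, and its groups did not overlap (adjusted p = 0.272; named after its values were seen). Osm, the oncostatin M gene of myeloid cells, had 0.405 and 2.08 CPM against 1.53, 1.65 and 1.33 CPM, so the Ksp-Cre values lay within the Prdm16fl/fl range (log2 fold change 0.29 ± 0.63, SE, adjusted p = 0.838).

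On the receptor side of this family 7 of 8 genes were tested, with 1 higher and 1 lower at an unadjusted p under 0.05. Osmr, the oncostatin M receptor, had 44.8 and 50.01 CPM in the Prdm16fl/fl mice and 70.2, 67.8 and 61.8 CPM in the Ksp-Cre mice. All 3 values were above the Prdm16fl/fl range, with a log2 fold change of 0.49 ± 0.12 (SE, adjusted p = 0.111). Il11ra1, the receptor chain for IL-11 and at a mean of 64.7 TPM the most abundant of the group, had 65.8 CPM in each Prdm16fl/fl mouse and 47.2, 45.4 and 41.0 CPM in the Ksp-Cre mice. The lower level was seen in each Ksp-Cre mouse, and with a log2 fold change of -0.56 ± 0.11 (SE, adjusted p = 0.0726) this member had the smallest p of all. Reads of Il11ra1 could be shared with its near copy Il11ra2 and with Ccl27a, which overlaps it on the opposite strand.

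The shared signalling chain Il6st had 125 and 105 CPM in the Prdm16fl/fl mice and 151, 168 and 93.4 CPM in Ksp-Cre mice 1, 2 and 3. As with Il1b, mice 1 and 2 were the highest and mouse 3 the lowest (log2 fold change 0.25 ± 0.26, SE, adjusted p = 0.634, and 0.47 without mouse 3). Lifr, the receptor for LIF, had 85.6 and 102 CPM against 91.7, 102 and 123 CPM, and its groups overlapped (log2 fold change 0.17 ± 0.16, SE, adjusted p = 0.607, and 0.055 without mouse 3).

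For the members that were called higher without Ksp-Cre mouse 3, the bases upstream of the start were searched for motifs of factors downstream of these receptors: NF-kB (by its consensus), STAT (TTCNNNGAA) and AP-1 (TGANTCA), on both strands in the 250 bases before the starts listed by RefSeq (GRCm38.p6). A gene with several starts was counted once, with a match in any of them. The windows of Il1r2, Lif and Il6 are shown because these 3 had the largest changes with a match, and the capitals mark the matches, none of which overlap here. They lie at chr1:40085843-40086092, chr11:4257318-4257567 and chr5:30012864-30013113, all on the plus strand.
Il1r2: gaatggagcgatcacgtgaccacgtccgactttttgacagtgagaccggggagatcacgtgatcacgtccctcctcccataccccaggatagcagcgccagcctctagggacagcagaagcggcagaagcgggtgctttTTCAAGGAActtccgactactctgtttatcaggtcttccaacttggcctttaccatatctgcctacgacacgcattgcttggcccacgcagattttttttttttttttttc
Lif: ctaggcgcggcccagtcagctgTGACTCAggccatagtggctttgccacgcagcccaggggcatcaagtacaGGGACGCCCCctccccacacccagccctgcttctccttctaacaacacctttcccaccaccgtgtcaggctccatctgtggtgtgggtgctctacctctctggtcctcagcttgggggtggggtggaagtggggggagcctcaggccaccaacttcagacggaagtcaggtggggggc
Il6: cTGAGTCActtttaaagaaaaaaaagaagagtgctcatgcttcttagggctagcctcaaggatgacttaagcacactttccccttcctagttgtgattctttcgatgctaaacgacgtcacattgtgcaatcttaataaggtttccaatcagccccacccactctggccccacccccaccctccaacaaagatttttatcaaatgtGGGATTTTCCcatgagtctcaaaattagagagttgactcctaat

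In Il1r2 the capitals are a STAT match that begins 111 bases before the start. In Lif they are an AP-1 match 228 and an NF-kB match 178 bases before it, and in Il6 an AP-1 match 249 and an NF-kB match 44 bases before it. Of the other members called higher without Ksp-Cre mouse 3, Il1rn had an AP-1 match 141 bases before its start. Il1f6 had no listed start and could not be searched. For Tnfsf8 and Il33 no window with a match was found. Windows were found for 63 of the 80 tested members. A STAT match was present in 12 of these (19%), an AP-1 match in 14 (22.2%) and an NF-kB match in 8 (12.7%), compared with 8.13%, 7.82% and 8.23% of the 27025 genes of the table. Among the 15 members with a window that were higher at an unadjusted p under 0.05, a STAT match was present in 4, an AP-1 match in 3 and an NF-kB match in 2. A match is a stretch of letters and not a shown binding site.

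Cytokines of the common gamma chain and IL-4/IL-13 group were mostly below 10 counts, and 2 of 7 were tested. Il15, a survival factor for NK cells and memory T cells, had 18.9 and 22.9 CPM in the Prdm16fl/fl mice and 12.9, 12.8 and 10.3 CPM in the Ksp-Cre mice. Every Ksp-Cre mouse was lower than both Prdm16fl/fl mice, with a log2 fold change of -0.80 ± 0.18 (SE, adjusted p = 0.0931). Of 8 tested receptors in this group, 1 was higher and 1 lower at an unadjusted p under 0.05. Il4ra, the shared receptor chain for IL-4 and IL-13, had 35.5 and 35.9 CPM against 47.1, 45.3 and 53.6 CPM. Its groups were separate, with a log2 fold change of 0.45 ± 0.12 (SE, adjusted p = 0.138). Its partner Il13ra1, the most abundant of the group at a mean of 53.8 TPM, had 79.4 and 75.7 CPM against 95.5, 96.2 and 61.0 CPM, with mouse 3 again the lowest (log2 fold change 0.12 ± 0.22, SE, adjusted p = 0.801, and 0.31 without mouse 3). Il7r, the IL-7 receptor of lymphocytes, was the lower one, with a log2 fold change of -0.62 ± 0.25 (SE, adjusted p = 0.258).

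None of the 5 IL-10 family cytokines was measured, while 4 of 6 receptors of that family were tested and 2 were higher at an unadjusted p under 0.05. Il10ra, the ligand-binding chain of the IL-10 receptor, had 30.7 and 33.1 CPM in the Prdm16fl/fl mice and 45.1, 40.6 and 43.3 CPM in the Ksp-Cre mice. The groups were separate, and the log2 fold change was 0.43 ± 0.12 (SE, adjusted p = 0.131). Il22ra1, the epithelial IL-22 receptor, was also separate, with a log2 fold change of 0.91 ± 0.34 (SE, adjusted p = 0.226). The shared chain Il10rb, the most abundant at a mean of 76.6 TPM, had 68.4 and 78.9 CPM against 75.8, 80.6 and 69.0 CPM, and these values overlapped (log2 fold change 0.03 ± 0.13, SE, adjusted p = 0.924, and 0.089 without mouse 3).

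In the IL-17 family, 2 of 6 cytokines and all 5 receptors were tested. Il17rb, the receptor for IL-25 and the most abundant of them at a mean of 69.3 TPM, had 44.6 and 44.7 CPM in the Prdm16fl/fl mice and 62.1, 82.8 and 54.6 CPM in the Ksp-Cre mice. The groups did not overlap, with a log2 fold change of 0.58 ± 0.19 (SE, adjusted p = 0.194). Il17rd, a receptor that tempers signalling, was the other higher one (log2 fold change 0.44 ± 0.16, SE, adjusted p = 0.224). The cytokine Il17d was near the detection limit with 0.539 and 0.861 CPM against 0.908, 0.768 and 0.866 CPM (adjusted p = 0.749). In the IL-12 family, Il12b, the shared chain of IL-12 and IL-23, had 20 and 15 reads in the Prdm16fl/fl mice and 12, 15 and 0 reads in the Ksp-Cre mice. The log2 fold change of -1.17 ± 0.90 (SE, adjusted p = 0.524) was -0.63 without mouse 3. Il12rb2, the IL-12 receptor chain, had 6.14 and 5.45 CPM against 5.11, 6.62 and 5.20 CPM, overlapping between the groups.

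Receptors of the common beta chain group, which serve IL-3 and IL-5, gave no p under 0.05. Il5ra had 8.02 and 8.04 CPM in the Prdm16fl/fl mice, 6.81 and 6.97 CPM in Ksp-Cre mice 1 and 2, and 1.93 CPM in mouse 3. All Ksp-Cre mice were lower, but most of the distance came from mouse 3 (log2 fold change -0.61 ± 0.52, SE, adjusted p = 0.561, and -0.22 without it). Il3ra had 8.76 and 8.75 CPM against 11.3, 9.87 and 9.13 CPM, with a log2 fold change of 0.21 ± 0.19 (SE, adjusted p = 0.59). With 1 mouse left out, this value ran from 0.118 to 0.277.

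Il34, a ligand of the macrophage receptor CSF1R that tubular epithelium can make, had a mean of 109.5 TPM over the 5 mice, raised by Ksp-Cre mouse 3 (233.9 TPM), and of 78.4 TPM without it. Among genes with an interleukin symbol its level per length was the highest in mouse 3 only, and it lay below Il11ra1 and Il10rb in both Prdm16fl/fl mice. It had 72.3 and 80.6 CPM in the Prdm16fl/fl mice, 87.4 and 110 CPM in Ksp-Cre mice 1 and 2, and 269 CPM in mouse 3. All Ksp-Cre mice were above the Prdm16fl/fl mice, but by far the most in mouse 3. The log2 fold change was 1.02 ± 0.49 (SE, adjusted p = 0.327) and 0.37 without that mouse. Its exons overlap Mtss2 and Gm15894 on the opposite strand.

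Of the TNF superfamily ligands, 9 of 12 were tested, with 1 higher and none lower at an unadjusted p under 0.05. That gene was Tnfsf8, the CD30 ligand of lymphoid and myeloid cells, with 0.809 and 1.65 CPM in the Prdm16fl/fl mice (12 and 23 reads) and 4.66, 4.37 and 2.27 CPM in the Ksp-Cre mice (82, 74 and 34 reads). Every Ksp-Cre mouse was above both Prdm16fl/fl mice, with a log2 fold change of 1.62 ± 0.49 (SE, adjusted p = 0.162) and 1.88 without mouse 3. Tnf itself had 2.29 and 2.94 CPM against 3.35, 5.97 and 0.866 CPM. As for Il1b, Ksp-Cre mice 1 and 2 were the highest and mouse 3 the lowest, and the log2 fold change of 0.38 ± 0.72 (SE, adjusted p = 0.809) was 0.83 without mouse 3. Tnfsf10, which encodes TRAIL and was the most abundant ligand at a mean of 38.7 TPM, had 86.8 and 91.4 CPM against 75.6, 101 and 39.2 CPM. Its groups overlapped and mouse 3 was the lowest (log2 fold change -0.31 ± 0.36, SE, adjusted p = 0.687, and -0.01 without mouse 3).

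All 8 TNF superfamily receptors with a death domain or a decoy function were tested, with 4 higher and none lower at an unadjusted p under 0.05. Tnfrsf1a, the main TNF receptor of parenchymal cells, had 76.9 and 92.9 CPM in the Prdm16fl/fl mice and 111, 110.5 and 152.5 CPM in the Ksp-Cre mice. The groups did not overlap, with a log2 fold change of 0.56 ± 0.19 (SE, adjusted p = 0.202). Tnfrsf22, a TRAIL decoy receptor, had 3.98 and 3.66 CPM against 6.93, 6.79 and 5.397 CPM. It was separate as well, with a log2 fold change of 0.74 ± 0.24 (SE, adjusted p = 0.184). The neighbouring decoy gene Tnfrsf23 (log2 fold change 1.13 ± 0.38, SE, adjusted p = 0.197) and the TRAIL receptor Tnfrsf10b (0.50 ± 0.20, SE, adjusted p = 0.257) were the other higher genes. Reads could be split between the near copies Tnfrsf22 and Tnfrsf23, and exons of Tnfrsf23 overlap E230032D23Rik.

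Tnfrsf21, death receptor 6, was the most abundant of all members at a mean of 292.6 TPM. It had 444 and 538 CPM in the Prdm16fl/fl mice and 285, 437.5 and 514 CPM in the Ksp-Cre mice, and its groups overlapped (log2 fold change -0.25 ± 0.26, SE, adjusted p = 0.642, and -0.44 without mouse 3). With 1 mouse left out, its log2 fold change ran from -0.441 to -0.0442. Tnfrsf11b, the decoy osteoprotegerin, was sparse, with 9 and 7 reads against 16, 17 and 4 (adjusted p = 0.768).

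Receptors without a death domain were tested for 8 of 12 genes, of which Tnfrsf12a and Tnfrsf1b were higher at an unadjusted p under 0.05 and none was lower. Tnfrsf12a, the TWEAK receptor Fn14 that is known to be induced in damaged epithelium, was the second most abundant member at a mean of 229 TPM. It had 54.9 and 61.4 CPM in the Prdm16fl/fl mice and 101, 79.3 and 154 CPM in the Ksp-Cre mice. All Ksp-Cre mice were higher, mouse 3 the most, with a log2 fold change of 0.94 ± 0.29 (SE, adjusted p = 0.165) and 0.64 without mouse 3. Exons of Tnfrsf12a overlap Hcfc1r1 on the opposite strand. Its ligand Tnfsf12 (TWEAK) had 10.7 and 13.1 CPM against 13.6, 12.9 and 12.8 CPM, an overlapping range (named after its values were seen). Tnfrsf1b, the TNF receptor of leukocytes and endothelium, had 29.3 and 31.5 CPM against 36.4, 41.2 and 44.4 CPM. These groups were separate, with a log2 fold change of 0.42 ± 0.13 (SE, adjusted p = 0.181).

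**Figure D2:**
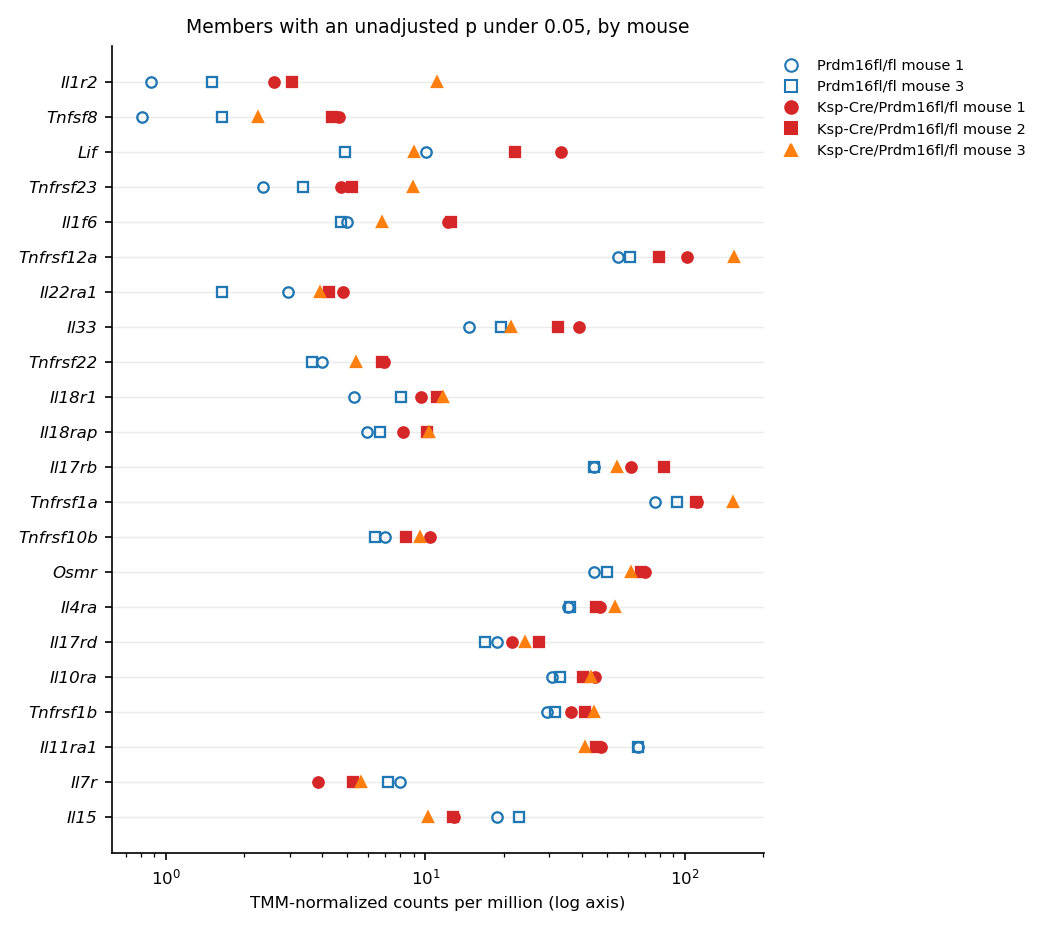
TMM-normalized CPM (log x axis) of the 22 members with an unadjusted p under 0.05, 1 point per mouse, with open symbols for Prdm16fl/fl mice, filled circles and squares for Ksp-Cre mice 1 and 2 and triangles for Ksp-Cre mouse 3. The groups overlap for Lif only, and mouse 3 is far above the others for Il1r2 (11.1 CPM).

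By mean TPM over the 5 mice, the members ran from Tnfrsf21, Tnfrsf12a, Tnfrsf1a (mean 123 TPM) and Il34 down to Il10rb, Il17rb, Il11ra1, Il6st and Il13ra1, so receptors made up most of the abundant members. These first 9 kept this order without Ksp-Cre mouse 3, where Il34 and Il10rb were nearly level (78.4 and 78.2 TPM). In the Prdm16fl/fl mice alone the order differed, with Il11ra1 (73.4 TPM) and Il10rb (67.9 TPM) above Il34 (60.7 TPM). Neighbours in this order were not tested against each other. In each mouse the highest member was Tnfrsf21 or Tnfrsf12a: Tnfrsf12a stood at 131 and 132.5 TPM in the Prdm16fl/fl mice and at 281.5, 220 and 382 TPM in the Ksp-Cre mice, compared with 281 and 309 TPM and 211, 323 and 339 TPM for Tnfrsf21. Tnfrsf12a was thus below Tnfrsf21 in both Prdm16fl/fl mice and above it in Ksp-Cre mice 1 and 3.

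The members fell into different patterns in Ksp-Cre mouse 3. The median log2 difference of the 80 tested members from the Prdm16fl/fl mean was 0.29 in Ksp-Cre mouse 1, 0.34 in mouse 2 and -0.036 in mouse 3. For 16 members (20%, against 8.52% of all tested genes), mice 1 and 2 were above both Prdm16fl/fl mice while mouse 3 was below both. They included Il1b, Il1rn, Il1r1, Il6, Il6st, Tnf, Tnfsf14, Tnfsf15, Il13ra1 and Tnfrsf11b. In all, mice 1 and 2 were above both Prdm16fl/fl mice for 44 members (55%, against 32.6%), and mouse 3 was the lowest of the 5 for 31 (38.8%, against 32%). By contrast, mouse 3 was the highest of the 5 for 14 members (17.5%, against 32% of all genes), among them Il34, Il1r2, Tnfrsf12a, Tnfrsf1a, Tnfrsf1b, Tnfrsf23, Il4ra, Il18r1, Il18rap and Lifr.

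**Figure D3:**
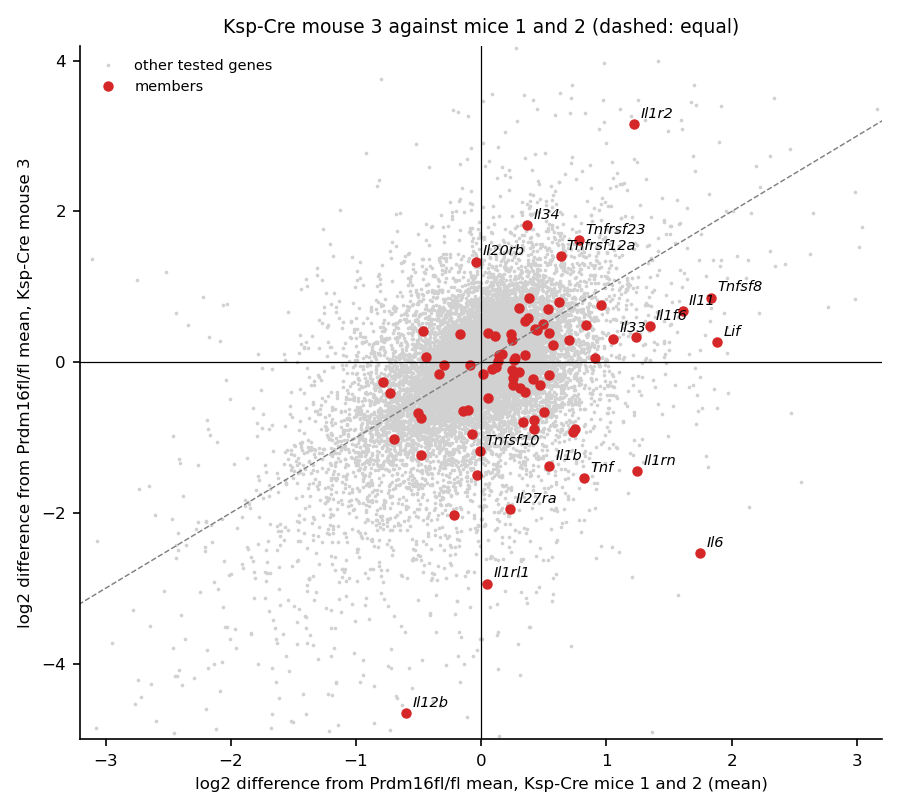
Log2 difference from the Prdm16fl/fl mean in Ksp-Cre mouse 3 (y axis) against the mean of Ksp-Cre mice 1 and 2 (x axis), with a red point for each of the 80 tested members and grey points for other tested genes (those beyond the axis limits are not drawn). Il6, Il1rn, Tnf and Il1b lie at the lower right, and Il1r2 and Il34 lie far above the dashed line of equal values.

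Marker lists of leukocytes and stroma also differed among the mice, and are summed here in CPM for each mouse. In whole tissue, fewer cells of a type and less RNA per cell cannot be told apart. The 13 macrophage and monocyte markers, all measured, summed to 1149 and 1581 CPM in the Prdm16fl/fl mice, 1905 and 1774 CPM in Ksp-Cre mice 1 and 2 and 1034 CPM in mouse 3. Single markers of this list differed from its sum. Lyz2, the most abundant of them, had 464 and 716 CPM against 772, 699 and 229 CPM, so that mouse 2 lay within the Prdm16fl/fl range and mouse 3 was the lowest. Itgam and Cd14, the 2 markers that were higher at an unadjusted p under 0.05, were by contrast highest in mouse 3, with 22.2 and 25.7 against 42.6, 40.2 and 56.3 CPM for Itgam and 43.7 and 74.1 against 92.2, 106 and 176 CPM for Cd14. In mouse 3, 5 of the 13 markers were the lowest of all mice, as were 32% of all tested genes.

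Dendritic cell markers summed to 89.1 and 85.5 CPM in the Prdm16fl/fl mice, 94.7 and 91.7 CPM in Ksp-Cre mice 1 and 2 and 35.2 CPM in mouse 3. Their most abundant gene Cd209a had 2.26 CPM in mouse 3 against 12.6 to 20.7 CPM in the other 4. T and NK cell markers, of which 12 of 15 were in the files, summed to 79.6 and 85.5 CPM, 75.7 and 94.6 CPM, and 45.97 CPM in mouse 3, where all 12 were the lowest of all mice (32% of all tested genes). Their leading gene Cd3g had 5.13 CPM there against 7.55 to 14.8 CPM in the other mice, and Gzma was the 1 marker of the list that was lower at an unadjusted p under 0.05. Neutrophil markers summed to 19.6 and 17.8 CPM against 27.3, 35.6 and 21.8 CPM, with Cxcr2 and S100a8 higher at that threshold. The list's most abundant gene by TPM, S100a9, overlapped between the groups and was lowest in mouse 3 (3.37 and 2.15 against 2.73, 6.67 and 1.87 CPM), and Csf3r in mouse 3 lay within the Prdm16fl/fl range. B and plasma cell markers, 7 of 9 in the files, lay between 32.9 and 45.6 CPM in all mice.

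Proximal tubule and tubular injury markers did not overlap between the genotypes in their sums, either in CPM or in TPM. The 11 proximal tubule markers summed to 7199 and 7137 TPM in the Prdm16fl/fl mice and 3641, 4401 and 3811 TPM in the Ksp-Cre mice. Of these, 8 were lower at an unadjusted p under 0.05 and Slc22a8, an organic anion transporter, was called lower (log2 fold change -2.68 ± 0.22, SE, adjusted p = 0.0242). The most abundant marker of the list, the fatty acid transporter Slc27a2, overlapped between the groups, with 2162 and 2715 TPM against 1595, 2071 and 2577 TPM, so that mouse 3 lay within the Prdm16fl/fl range. The 8 tubular injury markers summed to 1381 and 1204 TPM against 3059, 2924 and 3666 TPM, and 7 were higher at that threshold. Lcn2, the lipocalin of injured tubules, was the most abundant of them with 295.5 and 229 TPM against 855, 641 and 1843 TPM, so that mouse 3 was the highest, as for Il34 and Tnfrsf12a.

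Fibroblast and pericyte markers summed to 517 and 765 CPM in the Prdm16fl/fl mice against 1263, 1220 and 862 CPM, with 5 of 9 higher. Thick ascending limb markers were at 2721 and 3735 CPM against 2545, 2295 and 1227 CPM, which did not overlap, whereas in TPM they did (2246 and 2779 against 2476, 2227 and 1015 TPM). Endothelial markers were at 336 and 349 CPM against 350.1, 294.5 and 441.5 CPM. The part of these differences in the members' values was not tested.

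**Figure D4:**
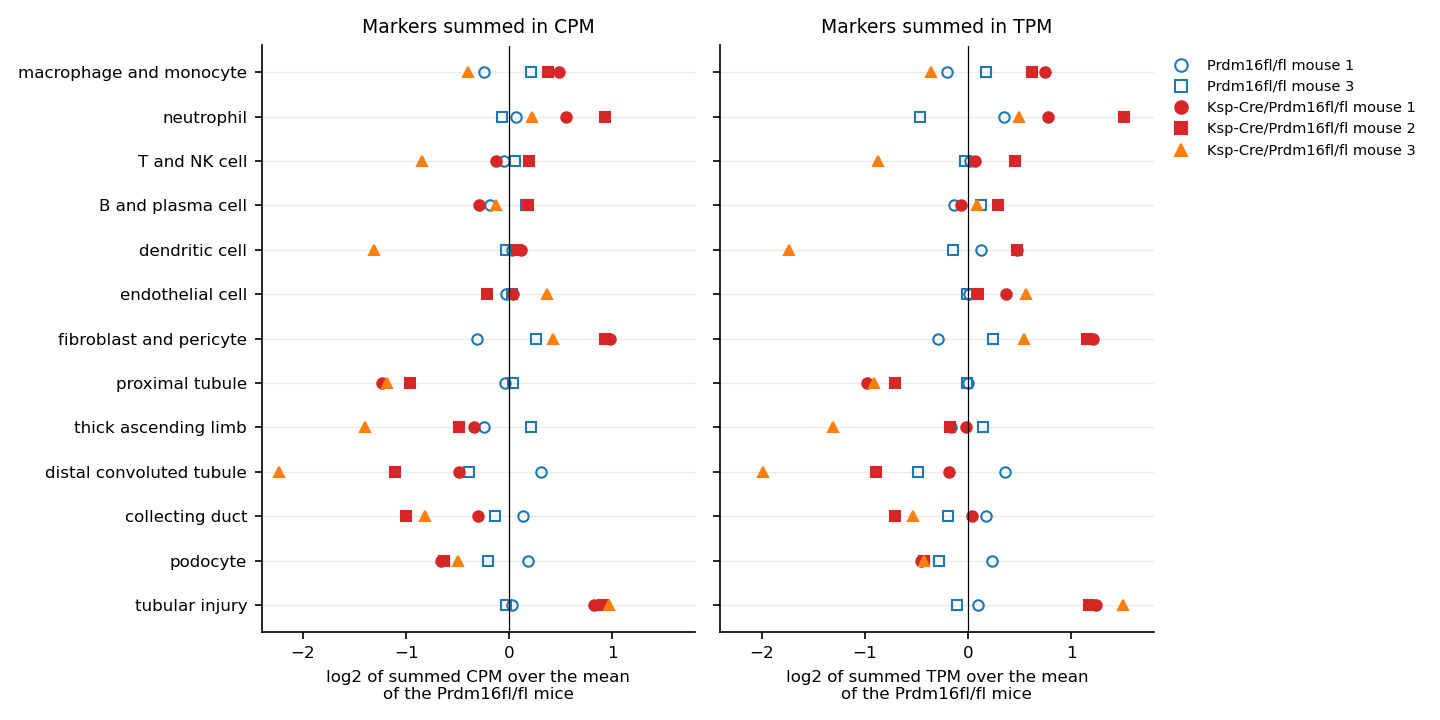
Log2 of the sum of each marker list shown over the mean of the Prdm16fl/fl mice (x axes), in CPM on the left and TPM on the right, 1 point per mouse. The lists of mast cells and eosinophils, adipose tissue and muscle, and lymph node stroma and urothelium are not drawn. Proximal tubule markers lie left and injury markers right of 0 in all 3 Ksp-Cre mice. For T and NK cell and dendritic cell markers, mouse 3 lies further left than the other mice. The dendritic cell markers of Ksp-Cre mice 1 and 2 lie near the Prdm16fl/fl mice in CPM and above them in TPM.

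The balance of signal and antagonist, and that of the TNF receptors Tnfrsf1b and Tnfrsf1a, was compared as the log2 ratio of TPM within each mouse. With 2 against 3 mice, the exact two-sided permutation test cannot give a p below 0.2. Il1r2 over Il1r1, decoy over signalling receptor, was -3.52 and -2.61 in the Prdm16fl/fl mice and -2.28, -1.88 and 0.32 in the Ksp-Cre mice. The ratio was higher in each Ksp-Cre mouse, by 1.79 on average (exact permutation p = 0.2, adjusted over 4 pairs 0.4). Without Ksp-Cre mouse 3, an alternative chosen after seeing the data, the difference was 0.987. Il18bp over Il18, binding protein over ligand, was 0.28 and 0.05 in the Prdm16fl/fl mice and 0.83, 0.67 and 0.22 in the Ksp-Cre mice, a difference of 0.41 (exact permutation p = 0.4). Il1rn over Il1b differed by 0.43 and Tnfrsf1b over Tnfrsf1a by -0.13, each with an exact permutation p of 0.4 and overlapping groups. For Tnfrsf11b over Tnfsf11 and Il13ra2 over Il13ra1, 1 gene of the pair was not measured.

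Other genes of these pathways were read from lists chosen for their function. Of 35 family genes under other symbols, 29 were tested. At an unadjusted p under 0.05, 4 were higher and 2 lower (7.64% and 11.2% of all tested genes). Ifngr2, an interferon gamma receptor chain, had a log2 fold change of 0.60 ± 0.10 (SE, adjusted p = 0.0552), and Cntfr, the ciliary neurotrophic factor receptor, of -1.41 ± 0.31 (SE, adjusted p = 0.0857).

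All 39 adaptor and NF-kB genes were tested. At an unadjusted p under 0.05, 8 were higher and none lower (7.64% and 11.2% of all tested genes). The median log2 fold change was 0.24 against 0.038 over all genes. The 3 with the smallest p were Nfkbiz, an inducible NF-kB cofactor (0.57 ± 0.12, SE, adjusted p = 0.0831), Map3k14, the NIK kinase (0.57 ± 0.12, SE, adjusted p = 0.0850), and the adaptor Myd88 (0.49 ± 0.12, SE, adjusted p = 0.119). None was called. Of 25 JAK-STAT genes, with a median of 0.24, 4 were higher and none lower at that threshold, beside the same shares of all tested genes. They were led by Socs2, a feedback inhibitor (0.78 ± 0.15, SE, adjusted p = 0.0726), Stat2 (0.61 ± 0.22, SE, adjusted p = 0.224) and Socs6 (0.32 ± 0.12, SE, adjusted p = 0.230).

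Of 33 tested transcripts that IL-1, TNF or IL-6 are known to induce, 12 were higher and none lower at an unadjusted p under 0.05 (7.64% and 11.2% of all tested genes), and the other 21 did not pass. The log2 fold change was above 0 for 32 of them, compared with 54% of all genes, and the median was 0.75 against 0.038. None was called. Of the 36 genes listed, Ksp-Cre mouse 3 was the highest of all mice for 12 and the lowest for 15 (each 32% of all tested genes). Saa3, an acute phase protein, was sparse, with 0.0674 and 0.0718 CPM in the Prdm16fl/fl mice and 0.511, 0.709 and 0.7996 CPM in the Ksp-Cre mice (adjusted p = 0.0741), where the former stand for 1 read each and no fold is given. Its near relative Saa1 (2.12 ± 0.52, SE, adjusted p = 0.113) and Lbp, the lipopolysaccharide binding protein (1.14 ± 0.27, SE, adjusted p = 0.108), were also higher in all 3 Ksp-Cre mice than in both Prdm16fl/fl mice. Lcn2 belongs to this list and to the injury markers alike.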

How the data were processed

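Kidney cortex mRNA of 5 mice was sequenced as 150 bp paired-end reads, and adapter-containing and poor-quality reads were discarded by the authors. The authors deposited raw counts, TPM and FPKM per gene for each mouse. TPM and FPKM recomputed from the counts differed from the deposited values by at most 6.71e-07 (relative). The submitters' processing notes name CASAVA, featureCounts 2.0.1, DESeq2 1.16.1 and the human build hg38. The aligner and the mouse build are not given in the sources used here. Lines of 5 genes were broken and were rejoined.

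Genes were filtered with filterByExpr, scaled with TMM and tested with the quasi-likelihood test of edgeR 4.0.16 (R 4.3.3), with Benjamini-Hochberg adjustment over 16394 genes. The script was tested on simulated data. Alternatives were DESeq2 1.42.0, other filters and scalings, removal of a gene length trend, limma 3.58.1 on log2 FPKM, a block by mouse number, and leaving out each mouse. Marker sums in CPM and ratios with 1 mouse left out were added after seeing the data. No libraries were duplicates (chi-square per degree of freedom of at least 9.89). That mice are separate animals follows from the labels.

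The members and lists were chosen with earlier results of these data known. Values in every mouse are given for called members, for those with the highest mean TPM or smallest p in each role, and for 16 members set by name. Of the other lists, the called genes and the 3 with the smallest p are named. Of marker lists, the genes at 0 are named and, for some of these lists, the most abundant gene. Any other gene is named after its values were seen. A gene that this rule would name is not reported here.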

Additional observations from a re-analysis of the deposited data

How the results depend on the processing

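The number of genes called was 116 and became 495 with DESeq2, 287 without a filter on low counts, 46 with library size scaling, 55 and 43 of 13345 tested with limma on log2(FPKM + 1) and log2(FPKM + 0.1), 33 with the gene length trend removed, and 0 to 733 when 1 mouse was left out (733 without Ksp-Cre mouse 3, 0 without each of the other 4). Members called numbered 0, against 3 with DESeq2 and 0 to 7 with 1 mouse left out. Members higher at an unadjusted p under 0.05 numbered 19, and 2 to 32 with 1 mouse left out. Lower ones numbered 3, against 5 without a filter (4.46% of members tested, and 7.9% of all genes) and 2 to 6 with 1 mouse left out. With 1 mouse left out, members above the Prdm16fl/fl range numbered 26 (without Ksp-Cre mouse 2, 32.5% against 23.8% of all genes) to 44 (without Ksp-Cre mouse 3, 55% against 32.6%), and those below it 9 (without Ksp-Cre mouse 1, 11.2% against 24.9%) to 15 (without Ksp-Cre mouse 2 or Prdm16fl/fl mouse 1, 18.8% against 25.1% and 29.6%). The median of the members stayed above that of all genes in every setting run, and library size scaling moved the latter to 0.15 and the former to 0.30.

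Mouse numbers 1 and 3 occur in both genotypes. Deviations of same-numbered mice from their group means correlated at 0.001 and -0.022. The deviations of the 2 Prdm16fl/fl mice mirror each other, so these values cannot show whether same-numbered mice have more in common than a number. With the replicate block, 0 of 16394 genes were called in edgeR, while at an unadjusted p under 0.05 11 members (13.8%) were higher and 3 (3.75%) lower, compared with 4.14% and 8.44% of all tested genes.

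Of 466 alternative fits of 35 named members, 18 over 9 members changed sign. With 1 mouse left out, the log2 fold change ran from -0.074 to 0.133 for Il10rb, -0.168 to 0.046 for Il12rb2, -0.0256 to 0.643 for Il17d, -0.125 to 0.549 for Il1b, -0.30 to 0.73 for Il1bos, -0.465 to 1.88 for Osm and -0.296 to 0.832 for Tnf. With library size scaling it was 0.0738 for Il12rb2. With the replicate block it was -0.0228 for Il10rb, -0.0213 for Il13ra1, -0.359 for Il1b, -0.511 for Tnf and -0.0201 for Tnfrsf11b. The causes were not tested. Leaving out each mouse in turn, chosen after seeing the data, kept the sign of all 4 TPM ratios (0.987 to 2.28 for Il1r2 over Il1r1, and 0.0772 to 0.784 for Il1rn over Il1b). At this depth, 38 members had fewer than 10 counts in every library.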

Other observations

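Il23a and Il9r reached 10 counts in 1 library but did not pass the filter. Il23a, a chain of IL-23, had 6 and 7 reads in the Prdm16fl/fl mice and 10, 6 and 5 in the Ksp-Cre mice, and Il9r had 4 and 13 reads against 3, 6 and 3. The mast cell markers Mcpt4, Fcer1a and Tpsb2, the skeletal muscle gene Myh4 and the CD27 ligand gene Cd70 had no read in any library. Of mast cell and eosinophil markers, 2 of 8 were tested and neither passed an unadjusted p of 0.05. Collecting duct markers summed to 856 and 662 TPM in the Prdm16fl/fl mice and 783, 467 and 524 TPM in the Ksp-Cre mice, distal convoluted tubule markers to 984 and 547 against 673, 412.5 and 194 TPM, and podocyte markers to 308 and 217 against 192, 195.5 and 196 TPM. The collecting duct and distal convoluted tubule sums overlapped between the groups in TPM and not in CPM (collecting duct 751 and 622 against 557, 342 and 389.5 CPM, distal convoluted tubule 1897 and 1172 against 1098, 710 and 327.5 CPM), and the podocyte sums overlapped in neither. Markers of adipose tissue and muscle reached at most 3.38 TPM, and those of lymph node stroma and urothelium at most 26.5 TPM.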
